A study of Rattus norvegicus with 9 samples.

Results

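Pulmonary artery was compared with mesenteric artery in adult rat offspring whose dams drank ordinary water during pregnancy (the control group, CON). The comparison used 6 of the 9 libraries: pulmonary artery replicates 1, 2 and 4 and mesenteric artery replicates 1, 2 and 3. The offspring were 3 to 5 months old, and both arteries were dissected under a microscope. The other 3 libraries were mesenteric arteries of offspring whose dams drank 20% sucrose water (the high-sucrose group, HS). Their values are given beside some control values only to show a further set of mesenteric libraries. The labels give neither strain nor sex. They do not state that replicates are different animals, so a p-value here reflects only variation among these libraries, part of which may be technical. All genes with at least 10 counts in at least 3 of the 6 libraries were compared, 14349 of 30452 features.

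The pulmonary artery carries blood from the right ventricle to the lungs at low pressure and develops beside the heart and the lung bud. Mesenteric arteries are resistance vessels of the gut, densely supplied by sympathetic nerves. Vessels of different body regions keep part of the positional transcription factor code of the mesoderm they came from, of which the Hox genes are the best known part. Smooth muscle of both vessels shares the same contractile apparatus but differs in ion channels and receptors.

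Total counts were 11011268 to 14910903 in the mesenteric and 11194622 to 15420546 in the pulmonary libraries, and mitochondrial genome transcripts took 12.8 to 16.7% and 13.9 to 27.1% of them. Smooth muscle markers were present in every library: Acta2, smooth muscle actin, read 6124, 6691 and 776 CPM (counts scaled to a common library size) in pulmonary replicates 1, 2 and 4 and 8124, 1055 and 4229 CPM in mesenteric replicates 1, 2 and 3. Pulmonary replicate 4 stood apart from the other libraries. It held the lowest Acta2 level of the 6, its summed level of 11 B cell markers was 8379 CPM against at most 136 CPM elsewhere, and limma's quality weight for it was 0.190 against 0.932 to 2.17 for the others. Pulmonary replicate 2 held 30989 CPM of 17 heart muscle genes, against 1104 CPM in replicate 1, 2571 CPM in replicate 4 and 70.5 to 107 CPM in the mesenteric libraries. Each difference is therefore described below by how many of the 3 pulmonary libraries showed it. In whole arteries, fewer cells of a type and less RNA per cell cannot be told apart.

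Only Nkx2-3 and Spon2 passed the test across all genes, both lower in pulmonary artery (edgeR's quasi-likelihood test, Benjamini-Hochberg adjusted p under 0.05, 0.0139% of the genes tested). At an unadjusted p under 0.05, 611 genes (4.26%) were higher and 619 (4.31%) lower in pulmonary artery. The 3 pulmonary values lay above all 3 mesenteric ones for 940 genes (6.55%) and below them for 1085 (7.56%). With 3 libraries against 3, an exact permutation test of a single gene cannot go below 0.10.

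A stricter description separated differences shared by the pulmonary libraries from those of a single one. A library was called high for a gene if its CPM plus 0.5 was over 2 times that of the highest mesenteric library, and low if it was more than 2-fold under that of the lowest mesenteric library. All 3 pulmonary libraries were high for 69 genes (0.481%) and low for 104 (0.725%). Exactly 1 was high for 1947 genes (13.6%) and low for 1481 (10.3%). Genes of a single pulmonary library thus outnumbered the shared ones in both directions. With the tissues exchanged, all 3 mesenteric libraries were high for 104 genes, 2 for 256 and exactly 1 for 524.

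**Figure D1:**
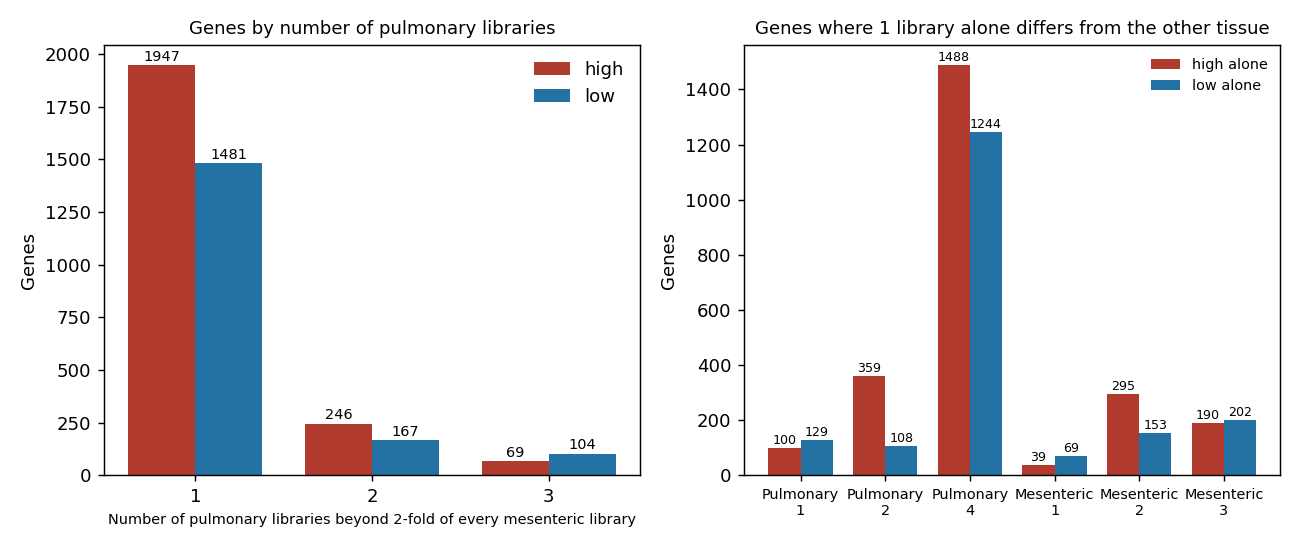
Left, number of genes (y axis) for which 1, 2 or 3 pulmonary libraries (x axis) were high (red) or low (blue), meaning over 2-fold beyond every mesenteric library; right, number of genes for which the library on the x axis alone was high or low against all 3 libraries of the other tissue. Shared genes number 69 and 104, and pulmonary replicate 4 alone accounts for 1488 and 1244.

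The promoters of 4 genes are shown because these genes stand for the shared differences in both directions: the transcription factor Nkx2-3 and the secreted matrix protein Spon2, low in pulmonary artery, and the transcription factor Six2 and the calcium channel subunit Cacna1d, high there. Each run is 5′ to 3′ on the gene's strand, from 250 bases before to 50 after the RefSeq start of the gene, in the rat build GRCr8, which is not the build of the counts. Capitals mark matches, on either strand, to any of 4 short motifs, some of which can overlap. The TATA box was searched as TATAAA and the core that many homeodomain proteins bind as TAATTA. The GC box was searched as GGGCGG, and the CCAAT box by the letters of its name. The regions are chr1:252427106-252427405 (+) for Nkx2-3, chr14:81736466-81736765 (+) for Spon2, chr6:14727808-14728107 (+) for Six2 and chr16:5527500-5527799 (-) for Cacna1d.
Nkx2-3: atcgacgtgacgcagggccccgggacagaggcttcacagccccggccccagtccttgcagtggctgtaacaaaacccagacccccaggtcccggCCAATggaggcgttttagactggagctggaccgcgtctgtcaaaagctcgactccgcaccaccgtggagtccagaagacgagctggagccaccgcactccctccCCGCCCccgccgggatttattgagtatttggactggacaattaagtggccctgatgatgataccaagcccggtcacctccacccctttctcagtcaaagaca
Spon2: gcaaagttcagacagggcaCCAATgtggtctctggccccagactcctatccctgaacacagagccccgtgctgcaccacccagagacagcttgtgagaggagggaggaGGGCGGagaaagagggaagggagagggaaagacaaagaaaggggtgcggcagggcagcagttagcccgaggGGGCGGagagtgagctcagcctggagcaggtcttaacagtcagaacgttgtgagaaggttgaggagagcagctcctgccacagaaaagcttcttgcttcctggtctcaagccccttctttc
Six2: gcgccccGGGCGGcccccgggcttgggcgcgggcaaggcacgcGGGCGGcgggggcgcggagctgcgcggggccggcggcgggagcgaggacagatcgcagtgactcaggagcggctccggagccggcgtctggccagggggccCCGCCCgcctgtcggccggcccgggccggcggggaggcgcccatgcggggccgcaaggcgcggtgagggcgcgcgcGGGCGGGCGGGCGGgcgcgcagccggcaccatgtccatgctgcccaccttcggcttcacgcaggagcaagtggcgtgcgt
Cacna1d: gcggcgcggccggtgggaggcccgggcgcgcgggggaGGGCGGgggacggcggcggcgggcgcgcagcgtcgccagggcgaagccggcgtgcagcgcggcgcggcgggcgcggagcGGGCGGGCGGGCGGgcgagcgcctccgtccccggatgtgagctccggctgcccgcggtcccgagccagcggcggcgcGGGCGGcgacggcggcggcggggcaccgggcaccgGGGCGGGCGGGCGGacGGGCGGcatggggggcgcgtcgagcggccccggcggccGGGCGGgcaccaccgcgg

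The 2 genes low in pulmonary artery had a CCAAT box and a GC box in this window, and the 2 high ones had GC boxes only, 10 of them in Cacna1d and 6 in Six2, some overlapping. GC content was 60.3% for Nkx2-3, 58.0% for Spon2, 82.0% for Six2 and 88.7% for Cacna1d. RefSeq promoters were matched for 52 of the 69 shared high genes and 65 of the 104 shared low genes. The TATA box letters occurred in 11.5% of the first and 20.0% of the second, against 6.69% of 10002 promoters of tested genes and 14.3% of all 27457 promoters in the table. GC box letters occurred in 48.1% and 46.2%, against 61.9% of the tested and 34.9% of all promoters. The homeodomain core occurred in 3.85% and 7.69%, against 2.08% and 5.35%. CCAAT letters occurred in 30.8% and 41.5%, against 37.3% and 37.7%. These are counts of letters in a fixed window and mark no binding site.

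Nkx2-3, a homeodomain factor of gut and spleen mesoderm, was close to absent from pulmonary artery. It read 0, 0.141 and 0.0669 CPM in pulmonary replicates 1, 2 and 4 and 48.8, 36.4 and 59.8 CPM in the mesenteric libraries. These are 3 counts against 1782, which is a 660.0-fold ratio (225 to 3203 by counting error at 95% confidence). The log2 fold change was -9.20 ± 0.64 (SE, n = 3 and 3), with an edgeR adjusted p of 0.0223. Nkx2-3 was under 10 counts in every pulmonary library, so it passed the count minimum only through mesenteric artery and had to differ. The fitted fold change of a gene with so few counts depends on the prior count. The 3 high-sucrose mesenteric libraries read 50.4, 30.8 and 57.7 CPM.

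Spon2, a secreted matrix protein of the spondin family, read 4.59, 4.16 and 4.89 CPM in the pulmonary libraries and 78.5, 105 and 65.4 CPM in the mesenteric ones. It fell by 4.19 ± 0.28 on the log2 scale (SE, n = 3 and 3), with an edgeR adjusted p of 0.0223. The groups did not overlap, and the pulmonary values lay within a narrow range. Spon2 read 20.2, 22.3 and 55.1 CPM in the high-sucrose mesenteric libraries, above all pulmonary values and below all control mesenteric ones. Leaving out any of the 5 libraries other than pulmonary replicate 4 ended both calls: the adjusted p of Nkx2-3 was then 0.0892 to 0.212, and that of Spon2 0.0966 to 0.170. Without pulmonary replicate 4, 20 genes passed, 6 higher and 14 lower, among them Ces1d, Cacna1d, Npy1r and Hoxc8.

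Hox genes, which encode position along the body axis, were 14 of the 104 shared low genes. Of 37 found, 21 passed the count minimum, and 14 of these were low in all 3 pulmonary libraries, against 0.725% of all genes. Of the 14, 5 (Hoxa6, Hoxa7, Hoxb8, Hoxc5 and Hoxc8) were under 10 counts in every pulmonary library, so they passed the count minimum only through mesenteric artery and had to differ. The same 14 had an unadjusted p under 0.05, against 4.31% of all genes lower at that level. None was higher, and none passed the adjusted threshold. The median log2 fold change over the 21 genes was -3.24, against 0.058 over all genes tested. The median difference from the mesenteric mean, on the log2(CPM + 0.5) scale, was -2.41, -2.19 and -2.43 in pulmonary replicates 1, 2 and 4. The 3 medians were close, but the summed level of the 37 Hox genes found was 169, 152 and 50.6 CPM in the 3 libraries, lowest in replicate 4. Of the 21 tested, 2 further Hox genes were low in replicate 4 alone, against 8.67% of all genes. In mesenteric artery the sum was 279 to 371 CPM.

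Hoxc8 read 0.0834, 0 and 0 CPM in the pulmonary libraries and 16.1, 20.6 and 9.97 CPM in the mesenteric ones, 1 count against 581. Hoxb7 read 0.750, 0.988 and 0.536 CPM against 14.3, 24.3 and 16.6 CPM (log2 fold change -4.58 ± 0.45, edgeR adjusted p = 0.0714). Hoxd8 read 1.83, 2.82 and 1.94 CPM against 20.2, 26.4 and 16.1 CPM. In all 3 genes the tissues were several-fold apart, and Hoxc8 had the widest gap of the 14.

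Hoxc6 read 0.167, 0.282 and 1.20 CPM against 24.5, 36.5 and 15.1 CPM. Hoxc5 read 0.167, 0 and 0.268 CPM against 6.97, 6.82 and 5.55 CPM. Hoxa5, the member with the highest pulmonary level among the 14, read 6.84, 10.2 and 5.49 CPM against 23.4, 47.3 and 23.5 CPM. The other shared low members were Hoxa6, Hoxa7, Hoxb5, Hoxb6, Hoxb8, Hoxc4, Hoxd4 and Hoxd9. The shared members came from all 4 Hox clusters and from paralog groups 4 to 9.

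Other transcription factors divided between the tissues. Zfhx4, a zinc finger homeobox factor, read 0.584, 1.41 and 1.14 CPM in pulmonary and 15.8, 31.6 and 14.7 CPM in mesenteric artery. Tcf21, a factor of visceral mesenchyme, read 11.3, 15.5 and 9.57 CPM against 34.0, 178 and 60.9 CPM. Nr2f2, known for venous and mesenchymal identity, read 31.5, 55.7 and 40.9 CPM against 146, 209 and 128 CPM. All 3 were low in each pulmonary library, and none passed the adjusted threshold.

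In the opposite direction, Six2, a homeobox factor of mesenchymal progenitors, was high in all 3 pulmonary libraries. It read 10, 3.95 and 9.71 CPM in pulmonary and 0.0663, 0.0886 and 0 CPM in mesenteric artery, 321 counts against 2, which is a 144-fold ratio (39.7 to 1198 by counting error). Its edgeR adjusted p was 0.0928. Six2 was under 10 counts in every mesenteric library, so it passed the count minimum only through pulmonary artery and had to differ.

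Of 18 heart and lung field transcription factors, 13 were tested and 4 were shared high, against 0.481% of all genes, with a list median log2 fold change of 0.27. None passed the adjusted threshold. All 4 were under 10 counts in every mesenteric library, so they entered the comparison only through pulmonary artery and had to differ. Tbx4, a factor of lung mesenchyme, read 1.5, 1.48 and 11.6 CPM against 0.133, 0.0886 and 0.0941 CPM. Tbx5, a factor of heart and forelimb, read 6.84, 47.1 and 1.87 CPM in pulmonary artery and had no count in mesenteric artery. Gata4, a heart factor, read 4.92, 40.4 and 2.41 CPM, 667 counts against 0 in mesenteric artery, at least 200.1-fold higher with a floor of 3 counts over the group. Gata5 read 1.25, 5.43 and 0.937 CPM, 106 counts against 1. The Tbx5, Gata4 and Gata5 levels were highest in replicate 2, where heart muscle genes were also highest, and the part of heart tissue in them was not tested. Replicate 1 held 1104 CPM of heart muscle genes, 1029 CPM of it from Actc1, and 7 of the 17 genes found were under 1 CPM there.

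**Figure D2:**
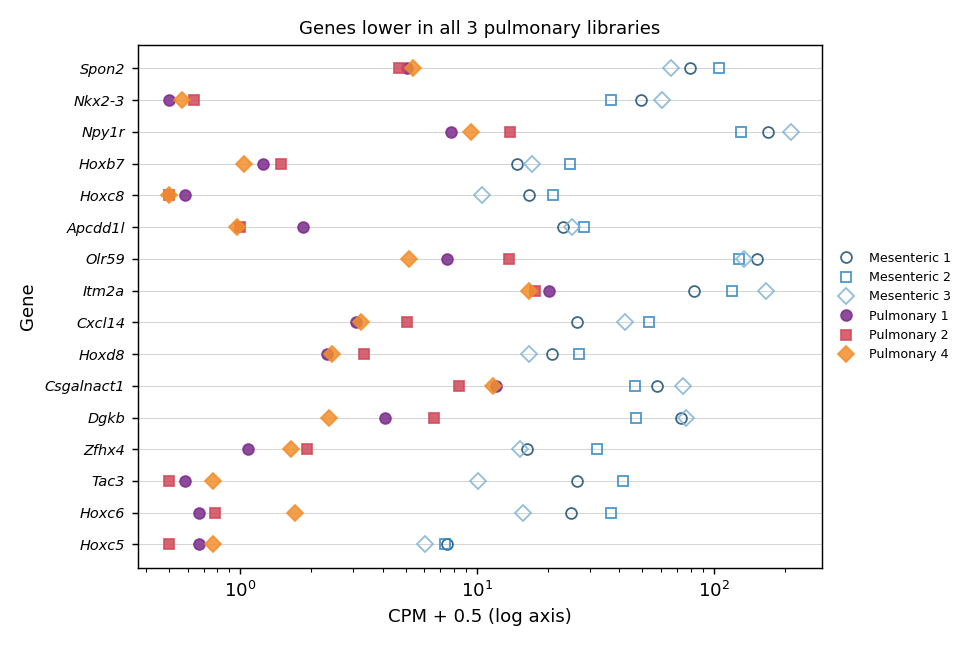
CPM plus 0.5 (x axis, log scale) of genes low in all 3 pulmonary libraries (y axis), chosen by smallest p or largest gap; filled symbols are pulmonary replicates 1, 2 and 4 and open symbols mesenteric replicates 1, 2 and 3, 1 library each. Every filled symbol lies left of every open one, for Nkx2-3 at 0 to 0.141 CPM against 36.4 to 59.8 CPM.

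Some receptors and channels of the vessel wall were among the shared genes. Of 23 constrictor receptors tested, 2 were shared low and none shared high, against 0.725% and 0.481% of all genes, and the list median was -0.08. The groups did not overlap for 6 of the 23, 1 higher and 5 lower, against 6.55% and 7.56% of all genes. Npy1r, the Y1 receptor for the sympathetic transmitter neuropeptide Y, read 7.25, 13.3 and 8.90 CPM in pulmonary and 169, 130 and 211 CPM in mesenteric artery (log2 fold change -4.11 ± 0.36, edgeR adjusted p = 0.0546). The high-sucrose mesenteric libraries read 91.1, 152 and 136 CPM. Avpr1a, the vasopressin V1a receptor, read 5.67, 11.3 and 2.88 CPM against 33.2, 35.3 and 94.9 CPM. Both receptors were separated from the mesenteric range in every pulmonary library.

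Among 19 tested genes of dilator pathways, with a list median of 0.01, only Calcrl was shared low and none was shared high. The shares over all genes were 0.725% and 0.481%. Calcrl, the receptor subunit for calcitonin gene-related peptide and adrenomedullin, read 10.3, 11.6 and 8.43 CPM against 40.9, 120 and 43.0 CPM. Of 13 tested blood endothelial genes, 12 had a negative fold change, with a median of -1.13, as did 6 of 7 lymphatic endothelial genes, with a median of -1.19. The median over all genes tested was 0.058. None of these endothelial genes was shared low or passed the adjusted threshold. Blood endothelial library medians were -1.10, -0.27 and -1.62 in pulmonary replicates 1, 2 and 4, against -0.53 to 0.53 in the mesenteric libraries. Lymphatic ones were -1.78, -0.41 and -1.35, against -0.69 to 1.06. In both lists pulmonary replicate 2 lay inside the mesenteric range. The part of endothelial cells in the Calcrl level was not tested. Ptgs1, the constitutive cyclooxygenase, read 146, 166 and 32.9 CPM against 60.6, 13.8 and 18.3 CPM, with replicate 4 inside the mesenteric range.

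Of 20 potassium channel genes tested, 2 were shared low, against 0.725% of all genes. Kcnab1, an accessory subunit of voltage-gated channels, read 14.3, 11.9 and 6.96 CPM against 107, 53.2 and 96.9 CPM. Kcne4, another accessory subunit, read 10.1, 10.1 and 7.16 CPM against 28.7, 46.2 and 37.9 CPM. Kcnk3, the acid-sensitive leak channel TASK-1, read 34.6, 98.2 and 8.30 CPM against 8.36, 10.1 and 3.10 CPM. Kcnk3 was thus high in replicates 1 and 2, while replicate 4 lay inside the mesenteric range.

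Among 23 tested calcium handling genes, Cacna1d was the 1 shared high member, against 0.481% of all genes. Cacna1d, the pore of the L-type channel Cav1.3, read 62.1, 45.2 and 14.3 CPM in pulmonary and 1.59, 0.797 and 0.658 CPM in mesenteric artery (log2 fold change 5.28 ± 0.71, edgeR adjusted p = 0.122). Cacna1c, the pore of the main smooth muscle L-type channel Cav1.2, read 128, 159 and 27.4 CPM against 88.8, 125 and 94.1 CPM, with a log2 fold change of 0.03 ± 0.60. The tissues overlapped for Cacna1c and not for Cacna1d. Ano1, a calcium-activated chloride channel, read 91.5, 78.3 and 23.7 CPM against 11.2, 13.4 and 4.89 CPM, so the groups did not overlap, and 2 of the 3 pulmonary libraries were high.

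S1pr3, a sphingosine-1-phosphate receptor, was shared high, with 105, 159 and 89.0 CPM against 20.1, 5.23 and 35.1 CPM. Drd1, the dopamine D1 receptor, was shared low, with 0.0834, 0.212 and 0.536 CPM against 21.4, 2.83 and 34.8 CPM. Drd1 was under 10 counts in every pulmonary library, so it passed the count minimum only through mesenteric artery and had to differ. Dgkb, a diacylglycerol kinase, read 3.59, 6.07 and 1.87 CPM against 72, 46.7 and 76.0 CPM. Mesenteric replicate 2 held the lowest mesenteric level of Drd1 and Dgkb, and it also held the lowest Acta2 level of the 3.

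Some matrix and signalling genes were shared: 3 low and 1 high of 25 matricellular and proteoglycan genes, and 1 low of 23 Wnt genes. Over all genes tested, 0.725% were shared low and 0.481% shared high. Apcdd1l, a membrane protein related to a Wnt inhibitor, read 1.33, 0.494 and 0.469 CPM in pulmonary and 22.6, 27.7 and 24.6 CPM in mesenteric artery (log2 fold change -5.03 ± 0.52, edgeR adjusted p = 0.0726), and 11.3, 7.12 and 10.8 CPM in the high-sucrose libraries. Grem1, a secreted BMP antagonist, read 2.67, 4.66 and 5.82 CPM against 115, 378 and 31.4 CPM. Bmp5, a BMP ligand, read 0.667, 0.917 and 2.01 CPM against 38.2, 7.44 and 13.0 CPM. These were the 2 shared low members among 32 tested BMP and TGF-beta genes, whose median was -0.56 and whose library medians were -0.39, -0.14 and -1.37.

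Slit2, a guidance cue, read 7.75, 5.72 and 4.42 CPM against 58.6, 119 and 42.6 CPM. Tac3, the neurokinin B precursor, read 0.0834, 0 and 0.268 CPM against 25.9, 40.9 and 9.59 CPM. Artn, a growth factor for sympathetic neurons, read 3.50, 2.54 and 2.81 CPM against 9.75, 25.1 and 10.3 CPM. These 3 genes encode secreted proteins, and for each the groups did not overlap. Tac3 was under 10 counts in every pulmonary library, so it passed the count minimum only through mesenteric artery and had to differ.

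Cxcl14, a chemokine, read 2.58, 4.59 and 2.74 CPM against 25.9, 52.7 and 41.9 CPM. Itm2a, a membrane protein, read 19.7, 17.1 and 16.1 CPM against 82.5, 119 and 165 CPM. Csgalnact1, an enzyme of chondroitin sulfate synthesis, read 11.6, 7.90 and 11.2 CPM against 56.9, 45.8 and 73.6 CPM. Has1, a hyaluronan synthase, read 4.84, 2.75 and 3.41 CPM against 24.5, 178 and 133 CPM. In all 4 genes every pulmonary value lay below every mesenteric one.

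Thrombospondins went in both directions. Thbs1 was shared low, with 11.3, 51.9 and 53.8 CPM against 253, 1318 and 164 CPM, and Thbs4 was shared high, with 13.3, 23.0 and 12.9 CPM against 3.78, 0.177 and 4.14 CPM. Collagen genes had no shared member among 21 tested, and neither had 18 elastic fibre genes. The collagen median was -0.66, with library medians of -0.39, -0.19 and -1.63. Of the 21 genes, 8 were low in replicate 4 alone, against 8.67% of all genes. The elastic fibre median was -0.12, with library medians of 0.22, 0.44 and -1.46.

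Immediate early genes, which cells induce within minutes of stimulation or handling, were lower in pulmonary artery as a list. Of 23 tested, 14 had an unadjusted p under 0.05, all lower, against 4.31% of all genes, and the list median was -1.98. None passed the adjusted threshold. Library medians were -1.82, -1.65 and -1.91 in the pulmonary libraries and -0.74, -0.26 and 0.94 in the mesenteric ones. Mesenteric replicate 3 was thus the highest of the 6 and pulmonary replicates lay below all mesenteric libraries.

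Atf3 read 28.3, 39.2 and 23.8 CPM against 143, 125 and 234 CPM, and 169, 36.9 and 471 CPM in the high-sucrose libraries, of which replicate 2 lay inside the pulmonary range. Egr2 read 2.67, 2.33 and 10.5 CPM against 40.7, 50.8 and 71.1 CPM, and 45.5, 15.9 and 84.9 CPM in the high-sucrose libraries. Ier3 read 33.6, 38.2 and 21.6 CPM against 86.2, 134 and 287 CPM. These were the 3 shared low members of the 23 tested, against 0.725% of all genes. Fos was low in replicates 1 and 2, with 225, 31.1 and 260 CPM against 497, 725 and 2574 CPM. Il6, an acute cytokine, read 0.250, 0 and 0.536 CPM against 4.91, 131 and 56.8 CPM. It was the 1 shared low gene among 15 tested acute inflammation genes, against 0.725% of all genes. Il6 was under 10 counts in every pulmonary library, so it passed the count minimum only through mesenteric artery and had to differ. Differences in handling or dissection time are not recorded in the labels, and their part in these values was not tested.

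Shared high genes included markers of mesothelium, the cell sheet that covers organs and great vessels in body cavities. Of 8 tested mesothelial markers, 4 were shared high, against 0.481% of all genes: Msln, Upk3b, Lrrn4 and Upk1b. All 4 were under 10 counts in every mesenteric library, so they entered the comparison only through pulmonary artery and had to differ. Msln, mesothelin, read 51.0, 9.03 and 142 CPM against 0.133, 0.354 and 0 CPM (edgeR adjusted p = 0.162). Upk3b read 16.6, 3.67 and 3.95 CPM against 0 in every control mesenteric library, at least 93.0-fold higher. Lrrn4 read 12.5, 3.25 and 3.08 CPM against 0, 0.0886 and 0 CPM, and Upk1b read 8.67, 2.61 and 3.82 CPM against 0, 0.266 and 0.376 CPM. Wt1, another mesothelial marker, was not higher, with 4.50, 0.847 and 1.87 CPM against 1.66, 6.47 and 2.07 CPM. The summed level of the list was 133, 37.3 and 268 CPM against 30.8, 60.0 and 21.2 CPM, so that replicate 2 lay within the mesenteric range. The part of mesothelial cells in the other shared high genes was not tested.

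Of the 69 shared high genes, 41 were under 10 counts in every mesenteric library, so they entered the comparison only through pulmonary artery and had to differ. Of the 104 shared low genes, 16 were under 10 counts in every pulmonary library and likewise had to differ. Ces1d, a carboxylesterase, was the shared high gene with the largest pulmonary level in replicate 1 after Actc1, with 221, 192 and 44.6 CPM against 5.11, 6.38 and 3.57 CPM (log2 fold change 4.92 ± 0.68, edgeR adjusted p = 0.132). Cdh4, a cadherin, read 7.42, 8.54 and 7.97 CPM against 0.133, 0.443 and 0.376 CPM. Baiap3, a protein of vesicle exocytosis, read 27.1, 14.3 and 22.6 CPM against 2.92, 2.30 and 2.07 CPM (log2 fold change 3.12 ± 0.38, edgeR adjusted p = 0.0928). Cdh4 was among the 41 genes that had to differ. In Cdh4 and Baiap3 no pulmonary library stood apart.

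Jup, the junction protein plakoglobin, read 64.4, 108 and 65.9 CPM against 25.7, 23.2 and 25.1 CPM. Dsg2, a desmosomal cadherin, read 3.67, 26.3 and 7.56 CPM against 0, 0.177 and 0.0941 CPM. Emb, the adhesion protein embigin, read 31.1, 17.6 and 34.5 CPM against 2.32, 5.67 and 4.89 CPM. Sphkap, an anchoring protein for protein kinase A, read 8.84, 22.2 and 2.41 CPM against 0.0663, 0 and 0.0941 CPM. Mybl1, a transcription factor of the Myb family, read 30.3, 18.3 and 25.5 CPM against 7.69, 3.63 and 3.95 CPM. Calml3, a calmodulin-like protein, read 36.8, 38.5 and 31.6 CPM against 4.38, 0.266 and 0 CPM. Gbp1, a guanylate-binding protein, read 8.92, 53.1 and 5.36 CPM against 0.531, 0.177 and 0.376 CPM. Of these 7 genes, Jup, Dsg2, Sphkap, Calml3 and Gbp1 were highest in replicate 2, where heart muscle genes were also highest, and the part of heart tissue in their levels was not tested. Dsg2, Sphkap and Gbp1 were under 10 counts in every mesenteric library, so they entered the comparison only through pulmonary artery and had to differ.

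**Figure D3:**
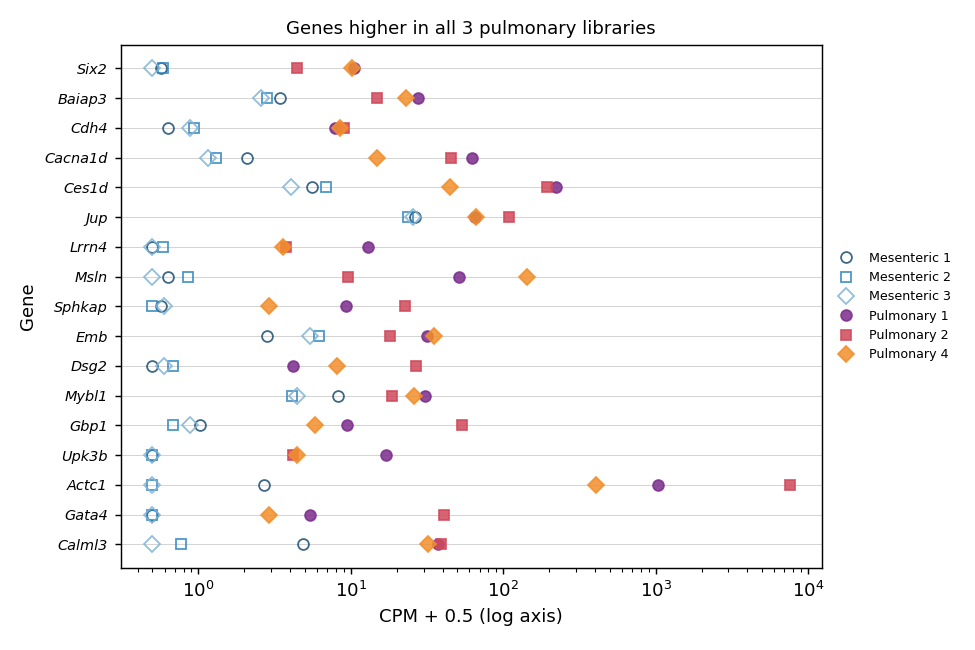
CPM plus 0.5 (x axis, log scale) of genes high in all 3 pulmonary libraries (y axis), chosen by smallest p or largest gap; filled symbols are pulmonary replicates 1, 2 and 4 and open symbols mesenteric replicates 1, 2 and 3, 1 library each. Cacna1d and Ces1d spread over several-fold within pulmonary artery (14.3 to 62.1 CPM and 44.6 to 221 CPM) and still do not meet the mesenteric values.

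Some shared high genes met the 2-fold rule in all pulmonary libraries but took most of their pulmonary level from a single one. Actc1, the actin of heart muscle, read 1029, 7604 and 406 CPM against 2.19, 0 and 0 CPM. Myl7, an atrial myosin light chain, read 1.33, 2295 and 375 CPM, and Mb, myoglobin, read 1.5, 1979 and 166 CPM, each at most 0.199 CPM in the control mesenteric libraries. Blk, a B cell kinase, read 10.5, 4.52 and 55.4 CPM against at most 0.532 CPM. Myl7, Mb and Blk were under 10 counts in every control mesenteric library, so they entered the comparison only through pulmonary artery and had to differ. In replicate 1, Actc1 stood at 1029 CPM while Myh6, the atrial myosin heavy chain, stood at 2.67 CPM and Tnnt2, cardiac troponin T, at 1.5 CPM, neither above the mesenteric range.

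Genes carried by pulmonary replicate 4 formed the largest class. Replicate 4 alone was high for 1488 genes (10.4%) and low for 1244 (8.67%), which were 76.4% and 84.0% of all genes carried by 1 pulmonary library. In the same count the single mesenteric libraries were high alone for 39, 295 and 190 genes and low alone for 69, 153 and 202. Lymphocyte genes led the high side. Cd79a, part of the B cell receptor, read 498 CPM in replicate 4 against at most 3.29 CPM elsewhere, and Cd79b read 195 CPM against at most 1.24 CPM.

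Aurkb, a mitotic kinase, read 193 CPM in replicate 4 against at most 1.33 CPM elsewhere. Lax1, a lymphocyte adaptor, read 113 CPM against at most 2.00 CPM, and Lag3, a T cell inhibitory receptor, read 95.3 CPM against at most 1.69 CPM. RT1-DOa, a class II histocompatibility chain of B cells, read 117 CPM against at most 1.77 CPM, and Wfdc2, an airway epithelial protein, read 209 CPM against at most 4.16 CPM. All 9 tested T cell markers were high in replicate 4 alone, against 10.4% of all genes, as in Cd3e with 3.92, 0.776 and 89.8 CPM against 1.66, 2.57 and 1.03 CPM. The T cell list had a median log2 fold change of 3.31 from this library. Lung epithelial markers summed to 1560 CPM in replicate 4, 134 CPM in replicate 2 and 18.8 CPM in replicate 1, against 18.7 to 43.7 CPM in mesenteric artery.

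The genes low in replicate 4 alone included 13 of 20 contractile genes, 10 of 12 white fat markers and 9 of 15 adventitial fibroblast markers, against 8.67% of all genes. Contractile genes had library medians of -0.38, -0.25 and -2.64 in pulmonary replicates 1, 2 and 4 and 0.57, -0.94 and 0.36 in the mesenteric libraries. Myocd, the smooth muscle coactivator, read 106, 101 and 5.22 CPM against 64.5, 45.9 and 49.1 CPM. Adipoq, the fat cell hormone adiponectin, read 204, 150.2 and 6.83 CPM against 158, 215 and 209.6 CPM. For Myocd and Adipoq, replicates 1 and 2 lay near or above the mesenteric range and replicate 4 far under it.

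Replicate 2 alone was high for 359 genes (2.50%) and low for 108. The 8 with the widest gap were genes expressed in heart or striated muscle, and 20 of the 359 were in any of the lists. Tnni3k, a cardiac kinase, read 74.2 CPM against at most 2.26 CPM in the other 5 libraries. Ckm, muscle creatine kinase, read 166 CPM against at most 6.76 CPM, and Fabp3, the heart fatty acid-binding protein, read 376 CPM against at most 18.5 CPM. Alpk3 read 125 CPM against at most 5.15 CPM, and Alpk2, Tmem182, Eef1a2 and Mlip, further genes of heart and striated muscle, read 60.8 to 168 CPM in replicate 2 alone.

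Atp2a2, the calcium pump of the sarcoplasmic reticulum, and Ryr2, the heart calcium release channel, followed the same pattern. Atp2a2 read 366, 4809.9 and 325 CPM against 443, 217 and 482 CPM, and Ryr2 read 52.9, 482 and 12.5 CPM against 67.7, 2.48 and 49.8 CPM. Heart muscle genes as a list had a median log2 fold change of 7.38 over 10 tested members, with library medians of 0.14, 9.06 and 5.52. Replicate 1 lay within the range of the mesenteric library medians, -0.33 to 0.16.

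Replicate 1 carried few genes of its own, 100 high and 129 low. The genes with the widest gap were Htra4, a secreted protease, with 20.1 CPM against at most 3.01 CPM, and Chst4, a sulfotransferase, with 5.17 CPM against at most 0.870 CPM. Omd, a matrix proteoglycan, read 413, 142 and 8.23 CPM against 143, 131 and 69.7 CPM. Pdgfd, a platelet-derived growth factor, read 33.2, 12.6 and 3.21 CPM against 8.03, 7.80 and 12.4 CPM. On the CPM plus 0.5 scale the gaps of replicate 1 to the next library reached 5.86-fold, where the leading genes of replicates 2 and 4 had gaps of at least 12.9-fold. B3gat2, Plppr4, Bcan and Adgrb2 completed the 8 leading genes, at 3.67 to 12 CPM in replicate 1.

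**Figure D4:**
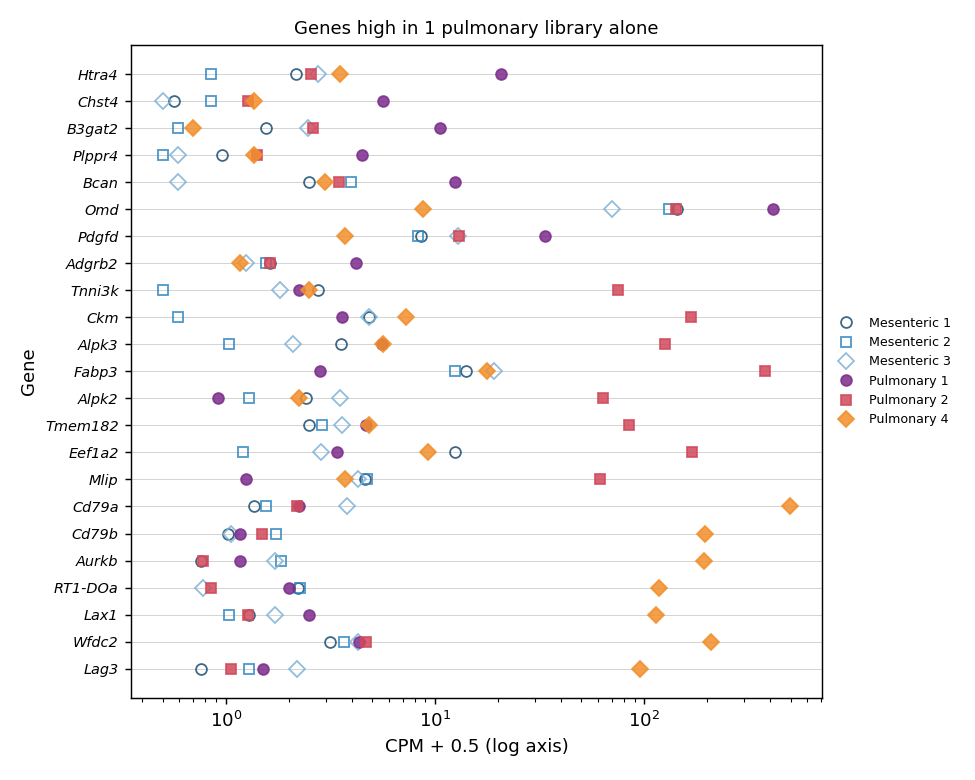
CPM plus 0.5 (x axis, log scale) of the genes with the largest gap for each pulmonary library (y axis, from top: 8 of replicate 1, 8 of replicate 2, 7 of replicate 4); filled symbols are pulmonary and open symbols mesenteric libraries, 1 library each. The heart and striated muscle genes stand out in replicate 2 and the lymphocyte genes, led by Cd79a at 498 CPM, in replicate 4.

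Pairs of pulmonary libraries shared further differences. Replicates 1 and 2 were both high, without replicate 4, for 102 genes, replicates 2 and 4 for 114 and replicates 1 and 4 for 30. The low pairs numbered 54, 61 and 52. Kcnk3, Ano1, Ptgs1 and Tbx18 were high in replicates 1 and 2, and Jchain, Ighm and Mzb1, genes of plasma cells, were high in replicates 2 and 4. Ighm read 8.42, 88.6 and 4647 CPM against 5.70, 6.02 and 3.29 CPM. Tbx18 read 31.3, 16.7 and 3.21 CPM against 3.32, 0 and 3.95 CPM.

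Near the 2-fold boundary, the values of members just inside and outside were close. Fap, a fibroblast protease, was just inside with 6.59, 11.4 and 5.76 CPM against at most 2.57 CPM in mesenteric artery. Rhou, a small GTPase, was just outside with 12.5, 9.88 and 13.6 CPM. Svep1, a matrix protein just inside the low class, read 49.0, 74.7 and 17.9 CPM with mesenteric values from 150.1 to 230.0 CPM. Mmp28, a metalloproteinase just outside it, read 15.3, 19.3 and 3.41 CPM.

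**Figure D5:**
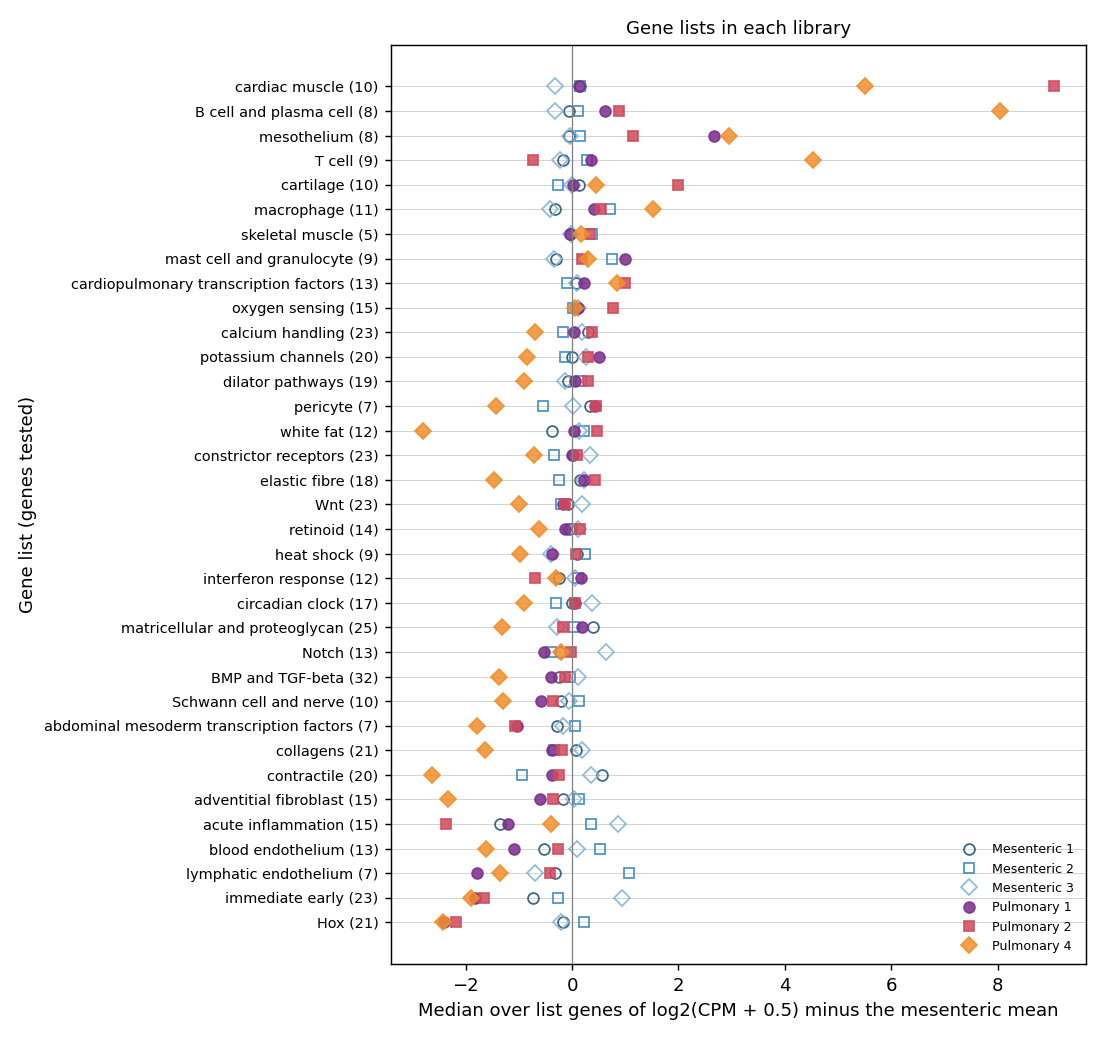
Median over the tested genes of each list (y axis, number tested in brackets) of log2(CPM + 0.5) minus the mean of the 3 mesenteric libraries (x axis), 1 symbol per library, filled for pulmonary and open for mesenteric. Hox and immediate early genes are low in all 3 pulmonary libraries (Hox -2.19 to -2.43), while T cell, B cell, contractile and white fat lists are set apart by replicate 4 and heart muscle by replicates 2 and 4.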

How the data were processed

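RNA of pulmonary and mesenteric arteries was enriched with oligo(dT) beads and copied with random primers, per the labels. The authors deposited raw gene counts, 1 table per library, without normalization; the submitters' processing notes name the build rn7. Aligner, counting program, annotation and strand were not given in the sources used here, so reads shared by gene copies, overlapping or antisense genes cannot be told apart. Of 30452 features, 7092 carry an Ensembl identifier only, and 235 names stand on 2394 lines, each kept as its own feature.

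Genes with at least 10 counts in at least 3 of the 6 libraries were tested with edgeR 4.0.16 in R 4.3.3 (quasi-likelihood F test, legacy estimation, robust prior, TMM factors, no covariates), with Benjamini-Hochberg adjustment over all 14349 genes and a threshold of 0.05. The test was checked on simulated data. CPM use TMM-scaled totals of the tested genes; those of the high-sucrose libraries use factors over 9 libraries. Shared and carried genes use CPM plus 0.5. Standard errors are the absolute log2 fold change over the root of F. Intervals (95%) and the floor of 3 counts cover counting error only, since the reads carry no molecular identifiers. Chi-square per degree of freedom between libraries of a group was 63.4 to 332, above counting error in every pair.

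A total of 39 gene lists with 632 genes were used; 594 were found by name and 513 tested. The members and lists were chosen with earlier results of these data known. Genes were named by rule: those past the threshold; per direction, 12 with the smallest p without overlap and 12 with the largest gap among shared genes, at a mean of at least 5 CPM; 8 with the largest gap per pulmonary library; up to 3 per list and cell type markers. Identifiers without a symbol, clone names included, were not named. Other shared, paired or boundary genes were chosen after their values were seen. Some genes that the rule or the lists name are not reported here. Promoters come from RefSeq (GRCr8), matched by symbol. Alternatives were other size factors, filters, fold limits and constants, DESeq2 1.42.0, limma 3.58.1 with voom quality weights, edgeR's newer estimation, all 9 libraries, the replicate number as a block, and each library left out.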

Additional observations from a re-analysis of the deposited data

How the results depend on the processing

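The count of genes past the threshold differed between tools and sets of libraries. It was 2 in the fit reported, 2 or 3 with other size factors or count filters and without mitochondrial genes, 9 with edgeR's newer estimation, 31 with limma-voom quality weights, 41 with all 9 libraries in the fit and 404 with DESeq2. Of these, all 9, all 31 and all 41, and 166 of the 404, lay in the classes shared by all 3 pulmonary libraries, which were formed from the same values. It ran from 0 to 20 with 1 library left out, 20 being without pulmonary replicate 4, and was 0 when replicate 1 stood alone for pulmonary artery, its spread then taken from the mesenteric libraries.

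With the replicate number as a block, 37 genes passed, 14 higher and 23 lower, 30 of them in the shared classes. The groups share only numbers 1 and 2. Deviations of same-numbered libraries from their group means correlated at 0.170 for number 1 and -0.170 for number 2, so the number was not treated as a pairing.

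Genes without overlap numbered 2025, and 2733 to 4161 with 1 library left out, since fewer libraries overlap less. With a 3-fold in place of a 2-fold limit, 33 genes were shared high and 54 shared low, and 1080 were carried high and 633 low. Genes private to 1 library (over 4 times each of the other 5) numbered 748, and 475 at 6 times. Over the alternatives, 2102 values of single named genes kept their side of the threshold, 147 newly passed and 12 no longer passed. Some of the single genes changed sign: 8 with pulmonary replicate 1 alone, 7 with the replicate number as a block (Cd3e among them) and 4 without pulmonary replicate 4. A few other settings turned 1 to 3 genes each. Of the list medians, 424 moved by less than the spread between replicates and 31 by more. Among the list medians given, signs turned for T cell, constrictor receptor and elastic fibre genes without pulmonary replicate 4, and for heart muscle, heart and lung field factor and elastic fibre genes with pulmonary replicate 1 alone. They also turned for dilator genes without pulmonary replicate 1 or 2 or mesenteric replicate 2 or 3, constrictor receptors without mesenteric replicate 3 and elastic fibre genes without mesenteric replicate 1. Gaps between genes near 0 CPM rest on few counts.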

Other observations

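Some other shared genes were related to each other. Olr59 and Olr63, of the olfactory receptor family, were low in all 3 pulmonary libraries. Olr59 read 7.00, 13.1 and 4.69 CPM in pulmonary replicates 1, 2 and 4 and 152, 128 and 134 CPM in mesenteric artery (log2 fold change -4.06 ± 0.43, edgeR adjusted p = 0.0861), with 93.4, 154 and 111 CPM in the high-sucrose libraries. Olr63 read 2.58, 5.15 and 3.21 CPM against 36.2, 71.7 and 21.0 CPM. Reg3b and Reg3g, antimicrobial lectins, were high in all 3 pulmonary libraries, with 4.34, 4.30 and 1.54 CPM for Reg3b and 33.9, 4.59 and 2.21 CPM for Reg3g, and no count in control mesenteric artery. Both thus entered the comparison only through pulmonary artery and had to differ. Of the high-sucrose libraries, replicate 1 read 4.60 CPM of Reg3g.

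Genes of Schwann cells were among the shared low genes. Cdh19, a cadherin of Schwann cells, read 2.00, 4.66 and 3.61 CPM against 15.1, 25.0 and 17.9 CPM. Of 10 tested genes of that list, 2 were shared low, against 0.725% of all genes, and the list median log2 fold change was -0.60. Scn7a, a sodium channel, read 20.9, 46.6 and 41.9 CPM against 140.3, 261 and 159 CPM.

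Some shared genes are close neighbours in the order of RefSeq protein-coding genes (GRCr8). With neighbours at most 3 places apart, 16 of 89 placed shared low genes fell into 5 groups. Of these groups, 4 were Hox clusters and held the shared low Hox genes given above. In the other direction, 9 of 64 placed shared high genes fell into 4 groups. Among them were Gata4, Blk and Fam167a, Dpp4 and Fap, and Reg3b and Reg3g. The share of neighbours among all tested genes was not counted, so these numbers do not measure clustering. The fifth low group was Tent5b and Trnp1.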
